A study of Mus musculus with 6 samples.

Results

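The 78 genes described here encode the proteins named as mitochondrial ribosomal proteins, out of 16415 genes listed for mouse trigeminal ganglion. Membership was set by symbol: protein-coding rows named Mrpl or Mrps, a number and optionally a letter a, b or c. Earlier results of these data were known when this family was chosen. All 78 were tested. The mitochondrial ribosome, or mitoribosome, translates the few messenger RNAs of the mitochondrial genome, which encode core subunits of the respiratory chain and of ATP synthase. Its ribosomal RNAs come from mitochondrial DNA, while every one of its proteins is made in the cytosol from a nuclear gene and imported. Neurons with long axons, such as those of the trigeminal ganglion, which relays touch, temperature and pain from the head, rely on oxidative phosphorylation for much of their ATP.

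Messenger RNA was profiled by bulk sequencing in 3 SETDB2-up and 3 NC-up libraries. Tissue and genotype were the same throughout, trigeminal ganglion of WT mice, and the treatment label alone sets the groups apart. The labels do not spell out either treatment name, say how it was given, or give an age, sex or number of animals, and the p-values therefore cover only library-to-library spread, which may be technical. The series title places SETDB2, KLF4, IDE and CGRP in sensory neurons in migraine. Values are read counts per gene that the authors divided by 1 factor per library, called normalised read counts below. In such bulk tissue, fewer cells of a type and less RNA per cell cannot be told apart.

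Whole reads recovered from the values summed to between 20355707 and 23501386 in SETDB2-up and between 19334997 and 23395693 in NC-up. Setdb2 was higher in the SETDB2-up libraries (113, 97.6 and 104 normalised reads, against 69.9, 58.4 and 71.5 in NC-up). Its log2 fold change was 0.65 ± 0.19 (SE; adjusted p = 0.0253 by limma), and it passed in 10 of 18 alternative fits. After a correction for transcript GC content the change was 0.47 and did not pass (limma adjusted p = 0.165). All 10 neuron markers were measured, and their summed level was 305430 to 329331 in SETDB2-up and 296462 to 312987 in NC-up. SETDB2-up libraries 1 and 2 stood apart by liver transcripts: 12 liver markers summed to 2949.7 and 6843 there, against 96.4 in SETDB2-up library 3 and 49.8 to 59.0 in NC-up, where Alb, Apoa1, Serpina1c, Serpina1d and Fgb were at 0 in every library. Summed keratinocyte markers were 118.7 to 142 in SETDB2-up and 188 to 572 in NC-up, with 5 of 6 lower. By limma 3 of 6 Schwann cell, 3 of 6 fibroblast and 3 of 7 skeletal muscle markers were also lower. So were 1 of 6 satellite glia, 1 of 6 endothelial and 1 of 5 erythroid markers, and no macrophage marker passed. Of the neuron markers 2 were higher and 1 lower, and 9 of 12 liver markers were higher. Among all tested genes 7.71% were higher and 8.71% lower. The part of any of these markers in the members' values was not tested. Liver has mitoribosomes too, so results for the members are also given without SETDB2-up libraries 1 and 2.

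The start regions of these genes shared features that the symbol rule did not use. A protein-coding gene of the opposite strand began within 1000 bp of the start of 32 members (41.0%), against 2033 of 14582 tested protein-coding genes (13.9%). In 24 of the 32 the distance was at most 250 bp, and 1 such pair consists of members on both sides: Mrpl46, of the large subunit, and Mrps11, of the small subunit, begin 42 bp apart and face away from each other on chromosome 7. Some partners also serve mitochondria. Ndufb5 (beside Mrpl47) and Ndufs6 (beside Mrpl36) encode complex I subunits, and Sars2 (beside Mrps12) encodes the mitochondrial seryl-tRNA synthetase. Twnk (beside Mrpl43) encodes the helicase that unwinds mitochondrial DNA. Others serve elsewhere, such as Rab6a (beside Mrpl48) and Fau (beside Mrpl49). The share of partners that serve mitochondria was not counted.

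RefSeq promoter windows (GRCm38.p6, 250 bases before to 50 after a start) were found for 69 members and for 11609 tested protein-coding genes. The letters CCGGAAG, read on both strands, are the core bound by ETS factors such as GABP (also called NRF-2), which is known for driving nuclear genes of mitochondrial proteins. They occurred in 24 of 69 member windows (34.8%) and in 16.4% of all 11609. The YY1 motif AANATGGC occurred in 30.4% of member windows and 7.93% of all, and the NRF1 motif in 18.8% and 9.63%. The GC box GGGCGG was not more frequent, at 49.3% and 62.5%. These matches are letters in a window, not shown sites, and no test of the shares was made. Stretches of 30 bases around an ETS match follow for the 4 changed genes with a match in their window and for Mrpl48, whose match lies near another of its starts, 5′ to 3′ on the gene's own strand, with the ETS letters in capitals. They are shown because 4 genes that fell and 1 that rose carry the same letters. In the counted windows 4 of the 9 changed genes had a match, against 24 of 69 members (34.8%), and Mrpl48 is not among those 4. A link between the letters and a change or its direction was not tested.

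Mrpl48 (chr7:100583146-100583175, minus strand, fell): ggttttaaaaaCTTCCGGaaccaagatgct
Mrpl57 (chr14:57826232-57826261, plus strand, fell): ccccagagagaCCGGAAGcagcgcgccgcc
Mrps21 (chr3:95871478-95871507, minus strand, fell): cgtagcttccgCTTCCGGtccgcagagacc
Mrpl18 (chr17:12916312-12916341, minus strand, fell): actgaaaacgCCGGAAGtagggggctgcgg
Mrps33 (chr6:39810887-39810916, minus strand, rose): aagtaaaggggggcgggcCTTCCGGggacg

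Mrpl48 has 4 RefSeq starts, and the match shown lies 34 bases before the innermost one, outside the window counted above. In Mrpl18 the match lies 240 bases before the RefSeq start at 12916091. That start is not the listed gene start, 12917787 on the minus strand, so the match lies inside the listed span of Mrpl18. The stretch also spans the listed start of Tcp1 (12916329) on the opposite strand. The match lies 39 bases after the start in Mrps33, 19 after in Mrps21 and 5 after in Mrpl57.

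**Figure D1:**
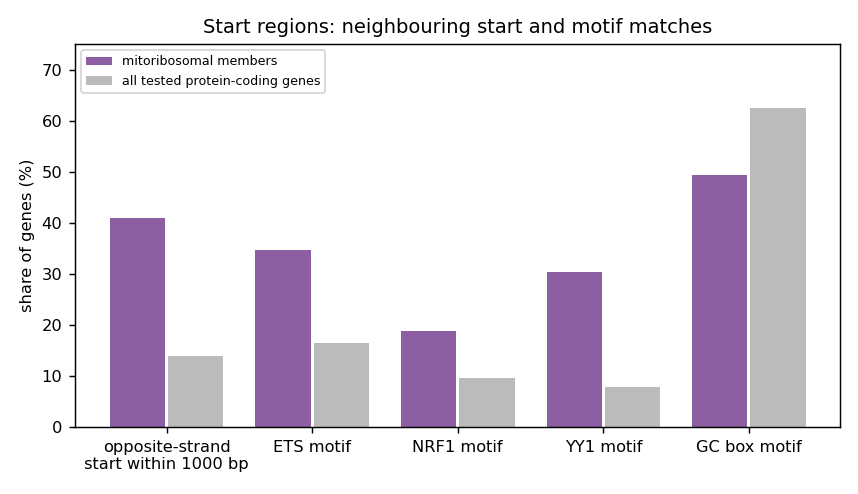
Bars give the share of genes in percent (y axis, from 0) for 78 members (neighbouring start) or 69 members (motifs) and, in grey, for all tested protein-coding genes with a value. An opposite-strand start within 1000 bp was found for 41.0% of members and 13.9% of protein-coding genes, while the GC box was found in 49.3% of member windows and 62.5% of all.

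Across the comparison of SETDB2-up with NC-up most mitoribosomal messenger RNAs did not pass the test. By limma, 3 of 78 rose and 6 fell at an adjusted p under 0.05, together 11.5%, against 16.4% of all 16387 tested genes. Among all tested genes 7.71% rose and 8.71% fell, so neither the 3.85% of members that rose nor the 7.69% that fell lies above the background. The members' median log2 fold change was -0.04, against 0.00043 over all tested genes, and their quartiles were -0.13 and 0.11. The size of the change was below 0.1 on the log2 scale in 30 members and below 0.25 in 67. The median standard error of a member's log2 fold change was 0.0949. Groups did not overlap in 10 members that were higher in SETDB2-up (12.8%, background 16.8%) and in 13 that were lower (16.7%, background 16.4%).

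**Figure D2:**
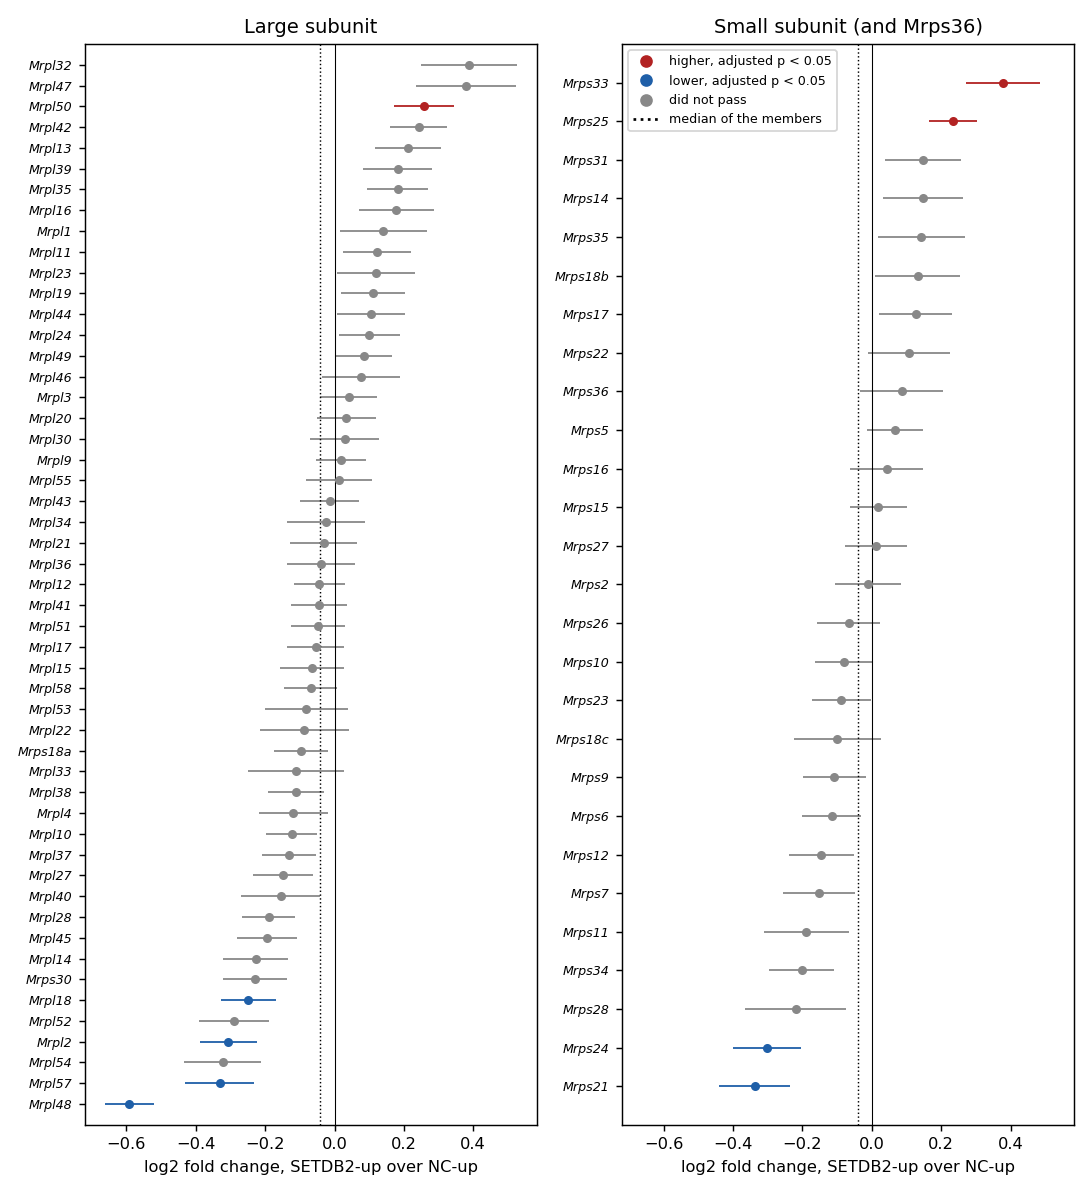
Each point is the log2 fold change of 1 gene (x axis, SETDB2-up over NC-up, 3 libraries each) with its standard error, for large-subunit genes (left) and small-subunit genes with Mrps36 (right). The 78 values run from -0.59 in Mrpl48 to 0.39 in Mrpl32, and most lie near the dotted line at the members' median of -0.04.

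Of the large subunit, which holds the peptidyl transferase centre and the exit tunnel for nascent protein, 51 members were measured, 1 of which rose (1.96%) and 4 of which fell (7.84%; median log2 fold change -0.04). Mrps18a and Mrps30 are counted there, since both proteins sit in the large subunit in spite of their names. Of the small subunit, which holds the messenger RNA and the decoding centre, 26 members were measured, 2 of which rose and 2 of which fell (7.69% each; median -0.04). Mrps36 (log2 fold change 0.09 ± 0.12 SE, adjusted p = 0.668 by limma) is named as a ribosomal protein but is known as a component of the 2-oxoglutarate dehydrogenase complex. Of 45 members with a bacterial homologue none rose and 4 fell (8.89%, against 8.71% of all tested genes) by limma. At an unadjusted p under 0.05 by limma, 2 rose and 6 fell. After edgeR none rose and 4 fell, against 7.37% and 8.99% of all tested genes. Here and below, counts at an unadjusted p under 0.05 have no share of all genes beside them, because none was taken. Of 32 that exist in mitochondrial ribosomes only, 3 rose (9.38%) and 2 fell (6.25%), against 7.71% and 8.71% of all tested genes. The difference between these classes was not tested.

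Mrpl48, a large-subunit protein of the central protuberance, had the largest change of all members (gene 52443, chromosome 7, 100545779 to 100608301, minus strand, GRCm38). Its normalised read counts were 1833, 1666 and 1905 in SETDB2-up libraries 1 to 3, against 2581, 2606 and 2960.5 in NC-up libraries 1 to 3. All 3 SETDB2-up libraries lay below all 3 NC-up libraries, with means of 1801 ± 123 and 2716 ± 212 (SD, n = 3 each). On the log2 scale Mrpl48 fell by 0.59 ± 0.07 (SE; adjusted p = 2.41e-05 by limma), and the call held in all 17 alternatives that include the gene. Without SETDB2-up libraries 1 and 2 it was the single member that passed (-0.51, limma adjusted p = 0.00387). Mrpl48 also had the highest level of the members per kilobase of transcript, at 2611 normalised reads per kb averaged over the 6 libraries.

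The 5′ end of Mrpl48 overlaps Rab6a, a gene for a small GTPase of Golgi traffic on the opposite strand that had 4.07 times its reads. The libraries are strand-specific, but whether reads were counted by strand is not stated, so reads of the overlap cannot be assigned with certainty. Rab6a itself had 8797, 8721 and 8777 in SETDB2-up and 9144, 9786 and 10009 in NC-up, which is -0.14 ± 0.05 on the log2 scale (SE; adjusted p = 0.0891 by limma). After a correction for transcript GC content Rab6a fell too (-0.30 ± 0.05 SE, limma adjusted p = 0.00147), as did Mrpl48, and Rab6a passed in 5 of its alternatives.

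The other large-subunit genes that fell were Mrpl2, Mrpl18 and Mrpl57. Mrpl2, the counterpart of bacterial protein L2 beside the peptidyl transferase centre (chromosome 17, 46646172 to 46650132), had 557, 604 and 633 in SETDB2-up, against 745, 720.2 and 751 in NC-up. On the log2 scale it fell by 0.31 ± 0.08 (SE; adjusted p = 0.0153 by limma). The NC-up libraries lay close together (739 ± 16.2, SD, n = 3), and every SETDB2-up library was lower (598 ± 38.4, SD, n = 3).

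Mrpl18, the counterpart of bacterial L18 in the central protuberance (chromosome 17, 12911345 to 12917787), had 768, 768 and 760.3 in SETDB2-up, against 851, 889.7 and 993 in NC-up. It fell by 0.25 ± 0.08 on the log2 scale (SE; adjusted p = 0.0365 by limma). SETDB2-up libraries were nearly equal for this gene, and the spread lay in NC-up. Mrpl18 lies opposite Tcp1, a subunit of the cytosolic chaperonin that had 4.23 times its reads and a log2 fold change of 0.15 (adjusted p = 0.112), so its reads are uncertain in the same way.

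Mrpl57, a protein found in mitochondrial ribosomes only (chromosome 14, 57826228 to 57829087), had 436, 369 and 453 in SETDB2-up, against 504, 549 and 526 in NC-up. The drop was -0.33 ± 0.10 on the log2 scale (SE; adjusted p = 0.0268 by limma). Library 2 was the lowest of the SETDB2-up group, and the groups did not overlap.

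In the small subunit Mrps21 and Mrps24 fell. Mrps21, the counterpart of bacterial S21 (chromosome 3, 95862634 to 95871514), had 576, 448 and 568 in SETDB2-up, against 619.7, 663 and 720.5 in NC-up (log2 fold change -0.34 ± 0.10 SE, limma adjusted p = 0.0278). Mrps24, the counterpart of bacterial S3 at the entry of messenger RNA (chromosome 11, 5703982 to 5707701), had 446, 399.7 and 489.9 in SETDB2-up, against 588, 504 and 554 in NC-up (-0.30 ± 0.10 SE, limma adjusted p = 0.0435). In both genes SETDB2-up library 2 was the lowest of the 6, and for Mrps24 the highest SETDB2-up library came close to the lowest of NC-up.

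The 3 genes that rose were Mrps33 and Mrps25 of the small subunit and Mrpl50 of the large one, none of which has a bacterial homologue. Mrps33, a protein of the small-subunit head (chromosome 6, 39801804 to 39810936), had 514, 429 and 563 in SETDB2-up, against 403, 357 and 392 in NC-up (log2 fold change 0.38 ± 0.11 SE, limma adjusted p = 0.0209). SETDB2-up libraries spread widely for Mrps33 (502 ± 67.7, SD, n = 3), yet the lowest of them was above the highest NC-up library. Mrps25 (chromosome 6, 92169512 to 92184023) had 1353, 1359 and 1319 in SETDB2-up, against 1126, 1084 and 1221 in NC-up (0.23 ± 0.07 SE, limma adjusted p = 0.0268). Mrpl50 (chromosome 4, 49512597 to 49521083) had 574, 565 and 571 in SETDB2-up, against 470.4, 490.3 and 468 in NC-up (0.26 ± 0.09 SE, limma adjusted p = 0.0450). Mrpl50 varied least, with SDs of 4.78 in SETDB2-up and 12.1 in NC-up, and it passed in 8 of 18 alternatives.

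**Figure D3:**
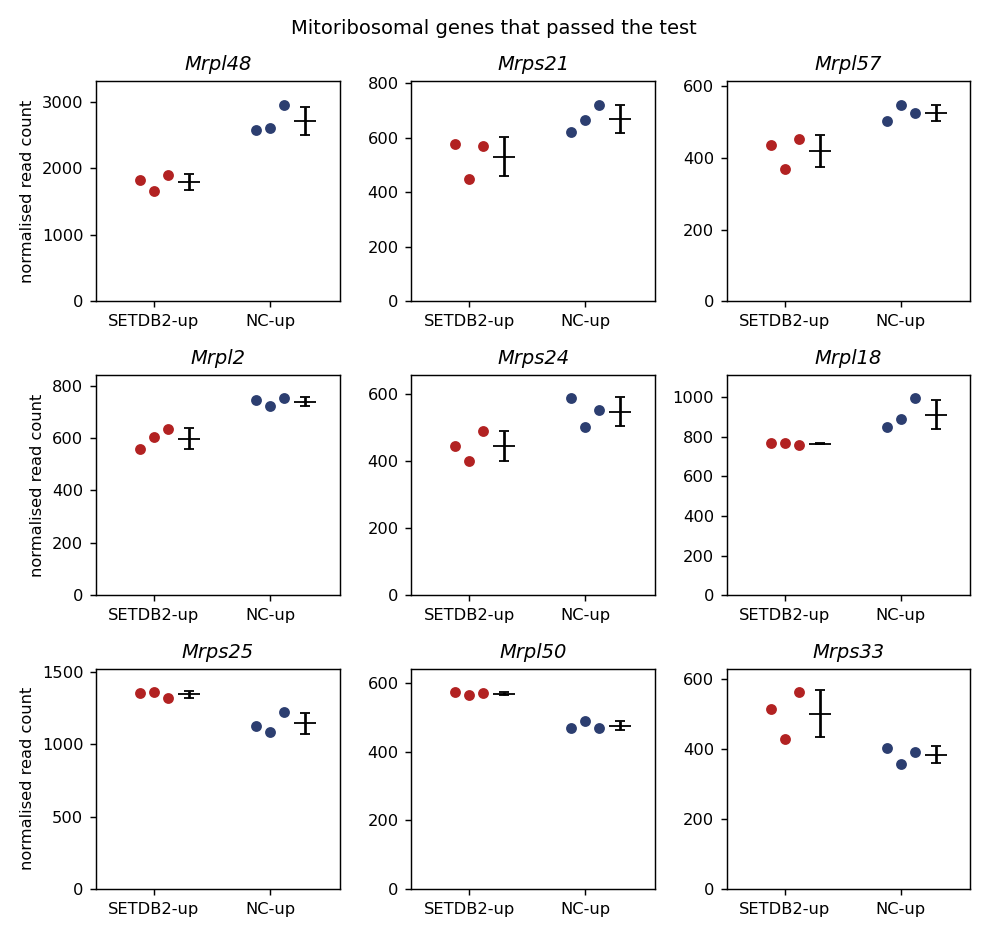
Each panel gives the normalised read count (y axis, from 0) of 1 gene in 3 SETDB2-up (red) and 3 NC-up (blue) libraries, in order of number, with the mean and SD beside them. Groups do not overlap in any of the 9 genes, and Mrpl48 shows the widest gap, with 1801 ± 123 in SETDB2-up and 2716 ± 212 in NC-up.

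Some members that did not pass had fold changes as large as these. Mrpl32 (203, 204 and 195 in SETDB2-up, against 155, 139 and 168 in NC-up) differed by 0.39 ± 0.14 SE on the log2 scale without passing (adjusted p = 0.0591 by limma), and Mrpl47 (179, 206 and 192, against 165, 149 and 129.6 in NC-up) one of 0.38 ± 0.14 SE (0.0796). Both were among the lowest 3 members per kilobase, with Mrpl1, at 50.6 to 70.1 normalised reads per kb; Mrpl48, Mrpl41 (1841) and Mrps21 (1479) were the highest 3. These levels rest on the median length of annotated transcripts, which counts long untranslated ends, and are no measure of protein amounts. For Mrpl32 that length (3013 bases) is larger than the listed gene span (14610301 to 14613037). Mrpl42 (0.24 ± 0.08 SE, limma adjusted p = 0.0526), Mrpl54 (-0.32 ± 0.11, 0.0539), Mrpl52 (-0.29 ± 0.10, 0.0564) and Mrps30 (-0.23 ± 0.09, 0.0995) did not pass either. Mrpl52 passed in edgeR on recovered reads (adjusted p = 0.0456), which otherwise called the same 9 members, so 3 rose and 7 fell, against 7.37% and 8.99% of all genes.

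The 3 genes named Mrps18 encode related proteins at different places in the mammalian mitoribosome, and Mrps18c is the one counted here as having a bacterial homologue. Mrps18a averaged 787 ± 28.9 in SETDB2-up and 841 ± 46.5 in NC-up, Mrps18b 271 ± 14.1 and 248 ± 29.3, and Mrps18c 218 ± 10.5 and 235 ± 24.2 (SD, n = 3 each). None passed the test (limma adjusted p from 0.432 to 0.636), and groups overlapped in each. The divergent pair Mrpl46 and Mrps11 did not pass either. Mrpl46 had 475, 463 and 568 in SETDB2-up, against 542, 401 and 488 in NC-up (log2 fold change 0.08 ± 0.11 SE), and Mrps11 had 309.7, 288 and 359, against 308, 366 and 420.1 in NC-up (-0.19 ± 0.12 SE).

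Among the 30 partner genes outside the family that begin within 1000 bp of a member, 3 passed by limma, all of them lower (10%, against 8.71% of all tested genes lower and 16.4% in either direction). These were Ppp1r10 (log2 fold change -0.56 ± 0.08 SE), beside Mrps18b, Fau (-0.39 ± 0.06 SE), a fusion gene of a cytosolic ribosomal protein beside Mrpl49, and Eme1 (-1.28 ± 0.38 SE), beside Mrpl27. The members on the other side had log2 fold changes of 0.13, 0.08 and -0.15 and did not pass.

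The direction of the members' median depended on which SETDB2-up library was read. Relative to the mean of all 6 libraries, the members' median level on the log2 scale was -0.0311, -0.0625 and 0.0820 in SETDB2-up libraries 1, 2 and 3, against -0.00101, -0.0229 and 0.0537 in NC-up libraries 1, 2 and 3. Over all tested genes the medians stayed between 0.00135 and 0.00562. SETDB2-up library 3 was the highest of its group in 56 of 78 members (71.8%), against 37.8% of all tested genes. SETDB2-up library 2 was the lowest in 48 of 78, against 32.0% of all tested genes. The order was similar in NC-up. NC-up library 3 was the highest of its group in 38 of 78 members (48.7%), against 34.7% of all tested genes. NC-up library 2 was the lowest in 34 of 78, against 32.4%. The 78 genes took up 0.215%, 0.207% and 0.226% of the reads in SETDB2-up, against 0.226%, 0.218% and 0.230% in NC-up. The summed small-subunit level was 0.439, 0.436 and 0.432 of the large-subunit level in SETDB2-up, against 0.424, 0.407 and 0.433 in NC-up, and these ratios overlapped.

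SETDB2-up libraries 1 and 2, the ones with lower mitoribosomal levels, are also the ones that hold liver transcripts. Some other summed markers also set library 3 apart. Erythroid markers were 5249 and 6245 in SETDB2-up libraries 1 and 2 and 15488 in library 3, against 7806 to 15313 in NC-up. Neuron, satellite glia, Schwann cell and skeletal muscle markers were highest in library 3 within SETDB2-up, and keratinocyte markers were lowest there. Fibroblast, endothelial and macrophage markers did not split this way and were highest in SETDB2-up library 1 (22213, 2795 and 2143). The part of any of these in the members' values was not tested. Without SETDB2-up library 3, 1 of 78 members rose and 11 fell, against 9.32% and 11% of all tested genes (20.4% in all). Without SETDB2-up library 1, 0 rose and 2 fell (6 and 10 at an unadjusted p under 0.05), against 2.53% and 4.08% of all genes (6.6% in all), and without SETDB2-up library 2, 1 rose and 2 fell, against 4% and 5.61% (9.61% in all). Without libraries 1 and 2, none rose and 1, Mrpl48, fell, against 0.891% and 1.84% of all genes (2.73% in all), and at an unadjusted p under 0.05 there were 4 higher and 2 lower members. That fit has 1 SETDB2-up library, which is assumed to vary like NC-up, and gave a members' median of 0.06.

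**Figure D4:**
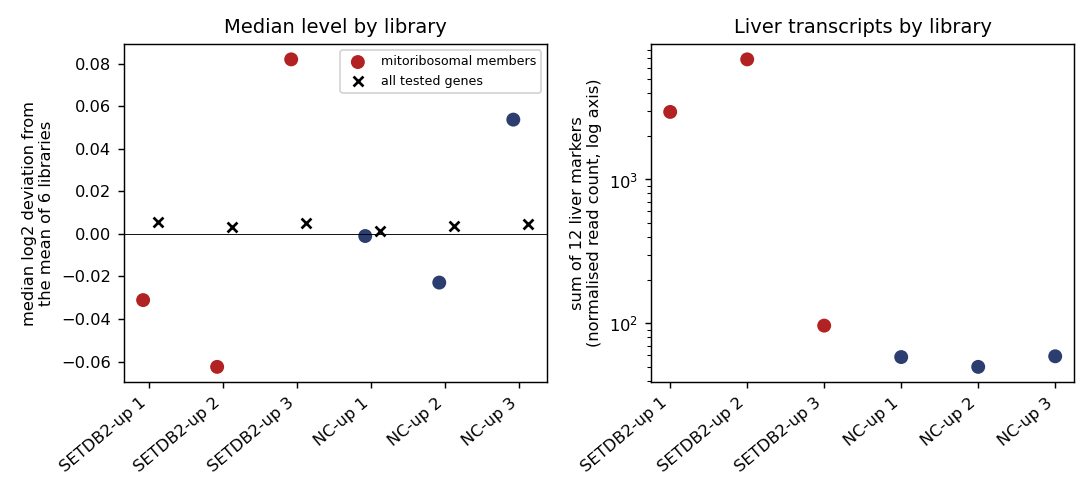
Left, the median log2 deviation from the mean of 6 libraries (y axis) for the 78 members (filled points) and for all tested genes (crosses) in each library; right, the summed normalised read count of 12 liver markers on a log axis. Members sit at -0.0311, -0.0625 and 0.0820 in SETDB2-up libraries 1 to 3, while liver markers sum to 2949.7, 6843 and 96.4 there.

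Fold changes varied with the base composition of the transcripts. Over the 78 members the log2 fold change had a Pearson r of -0.50 and a Spearman rho of -0.53 with transcript GC content, and over all tested genes the Pearson r was -0.41; these describe genes measured in the same 6 libraries, which are not independent. Of 28 members below 49% GC, 3 rose and 1 fell (median log2 fold change 0.13), against 17.8% and 1.89% of all tested genes in that range (median 0.15). Of 25 members from 49% to 53%, 3 passed, all lower (12%, median -0.03), against 4.05% higher and 4.28% lower of all tested genes there (median 0.02). Of 25 members at 53% or above 2 passed, both lower (8%, median -0.12), against 0.629% higher and 17.6% lower of all tested genes there (median -0.13). All 3 genes that rose lay at 42.3% to 45.1% GC.

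After a GC correction 0 of 78 members rose and 6 fell (7.69%) by limma, with 0 and 9 at an unadjusted p under 0.05. Of all genes with a GC value 2.12% rose and 3.75% fell (5.87% in all). The members' share that fell was above that background in this fit, and the difference was not tested. With library numbers as a replicate block 4 members rose and 8 fell, against 10.3% and 11.7% of all genes (22.1% in all), and with the block and the GC correction 0 rose and 6 fell by limma (1 and 10 at an unadjusted p under 0.05), against 5.21% and 6.67% (11.9% in all). Mrps33 (0.22, adjusted p = 0.264), Mrps25 (0.09, adjusted p = 0.450), Mrpl50 (0.07, adjusted p = 0.712), Mrpl2 (-0.16, adjusted p = 0.245) and Mrps24 (-0.22, adjusted p = 0.200) did not pass after it by limma. Mrpl48 (-0.65), Mrpl57 (-0.52), Mrps21 (-0.35) and Mrpl18 (-0.28) still fell, and so did Mrps30 (-0.39) and Mrpl45 (-0.30). Mrpl45 is a protein at the tunnel exit that ties the ribosome to the inner membrane. Mrpl57 and Mrps30 have low GC content (42.3% and 44.2%) and fell more after the correction than before it. The annotated transcript length of Mrpl57 (2877 bases) is larger than its listed gene span (57826228 to 57829087). Its GC content may therefore not be that of the counted transcript.

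**Figure D5:**
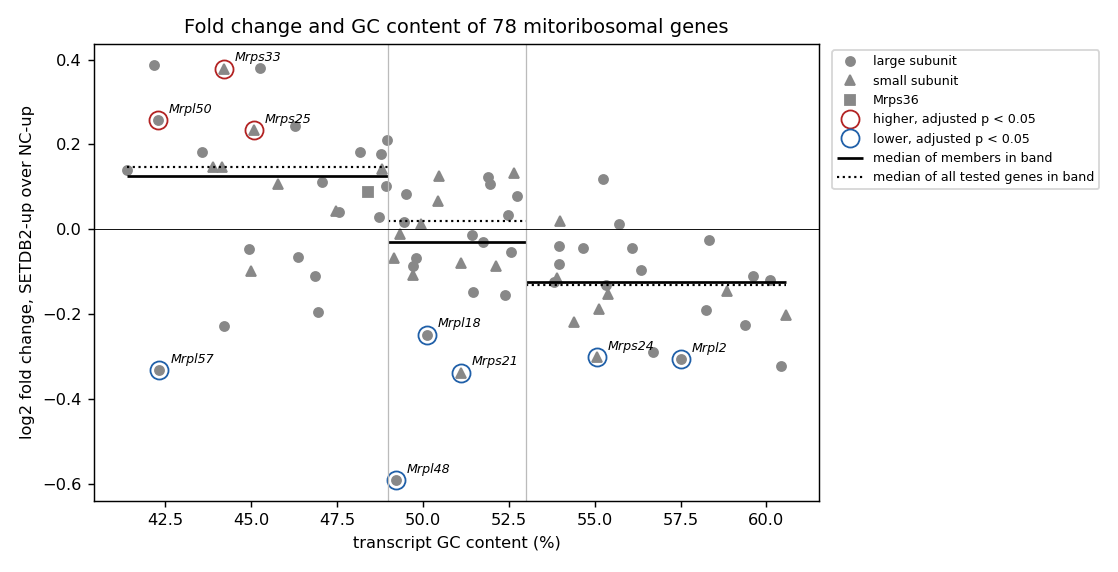
Log2 fold change (y axis, SETDB2-up over NC-up) against transcript GC content in percent (x axis) for 78 members, with rings around genes that passed the test and, in 3 GC bands, the median of the members (solid) and of all tested genes (dotted). The members' medians are 0.13, -0.03 and -0.12 from low to high GC, near those of all genes.

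Other parts of mitochondrial translation were read from lists. Of 5 measured mitoribosomal proteins with other symbols, 1 passed (20%): Gadd45gip1, a large-subunit protein, had 894, 842 and 903 in SETDB2-up, against 1052, 1089 and 1018 in NC-up (log2 fold change -0.26 ± 0.07 SE, limma adjusted p = 0.0190). Of 29 genes for assembly of the mitoribosome and modification of its RNA, 1 passed (3.45%, against 16.4% of all tested genes): Mterf3, a regulator of mitochondrial transcription and ribosome assembly, had 288, 269.5 and 269 in SETDB2-up, against 209, 203 and 189 in NC-up (0.46 ± 0.12 SE, limma adjusted p = 0.0123). Mterf3 lies opposite Ptdss1 and Gm10767, with 6.38 times its reads, and its reads are uncertain like those of Mrpl48 and Mrpl18. The assembly list had a median log2 fold change of 0.10, against 0.00043 over all genes.

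Of 20 measured translation factors and their partners, 3 rose (15%) and 1 fell (5%), against 7.71% and 8.71% of all tested genes. Lrpprc, which stabilises mitochondrial messenger RNAs, had 2186, 2078 and 2209 in SETDB2-up, against 1700.3, 1871 and 1886 in NC-up (log2 fold change 0.25 ± 0.06 SE, limma adjusted p = 0.0129). Taco1, an activator of translation of the COX1 messenger RNA, rose by 0.32 ± 0.10 SE, and Gfm1, the mitochondrial elongation factor G, by 0.21 ± 0.07 SE, at an adjusted p of 0.0307 and 0.0499 by limma. Gfm1 passed in 5 of 18 alternatives and not in edgeR (adjusted p = 0.0609). Cox18, which inserts a cytochrome oxidase subunit into the inner membrane, fell (-0.38 ± 0.13 SE, limma adjusted p = 0.0466). After the GC correction Taco1 still passed (0.37, limma adjusted p = 0.0309), while Gadd45gip1, Mterf3, Lrpprc, Gfm1 and Cox18 did not. Without SETDB2-up libraries 1 and 2 none of these 6 genes passed by limma (adjusted p from 0.114 in Lrpprc to 0.433 in Cox18), and Taco1 (adjusted p = 0.379) also did not pass without SETDB2-up library 1 (0.172), SETDB2-up library 2 (0.0504), NC-up library 1 (0.0972) or NC-up library 2 (0.0886). Slirp, the partner of Lrpprc, fell after the correction (-0.47, limma adjusted p = 0.0192) and is named because of that value. Of 19 genes for mitochondrial transcription and genome maintenance 0 passed by limma and 0 by edgeR (1 at an unadjusted p under 0.05 by either); Mterf2 (0.40 ± 0.16 SE, adjusted p = 0.0977) and Twnk (-0.19 ± 0.09 SE, adjusted p = 0.180) had the smallest p.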

How the data were processed

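Poly(A)-enriched, strand-specific libraries of trigeminal ganglion were sequenced as read pairs, per the labels' protocols. FastQC and HISAT2 were used with build GRCm38, per the submitters' processing notes; the sources used here give no version, counter, strand setting, annotation or scaling method. The values the authors deposited are a normalised signal, read counts divided by 1 factor per library. Whole reads were recovered for 100% of values of 16415 genes (tolerance 0.001), and 3 reads equal 0.128 to 0.155 CPM.

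The 16387 genes reaching 1 in 3 or more libraries (28 were removed) were tested on log2(value + 1) by limma 3.58.1 with its trend option in R 4.3.3, and p-values were adjusted by Benjamini-Hochberg over all of them. Fold changes on this scale understate those of low genes. edgeR 4.0.16 and DESeq2 1.42.0 on recovered reads were alternatives. Members and lists were chosen with earlier results of these data known. Genes named are members past 0.05, the 3 highest and lowest per kilobase, the 3 largest non-passing changes each way, the Mrps18 paralogues, and up to 4 passing genes per list; the others were chosen after their values were seen. GC content and length are medians over a gene's GENCODE M21 transcripts (the protein-coding ones where it has any), with values for 15541 genes (94.7%) and all 78 members. The GC correction removed a lowess curve (span 0.3) from each library. The limma and edgeR fits were also run on simulated counts with known changes. That simulation held no GC trend and no library-specific liver transcripts, so it does not give error rates for these data.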

Additional observations from a re-analysis of the deposited data

How the results depend on the processing

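The 3 members that rose became 0 after GC correction, 0 after GC and length correction, 0 with the replicate block and GC correction together, and 0 without SETDB2-up libraries 1 and 2; leaving out 1 library at a time gave 0 to 2. The 6 that fell became 1 without SETDB2-up libraries 1 and 2, and leaving out 1 library gave 2 (without SETDB2-up library 1, SETDB2-up library 2 or NC-up library 3) to 11 (without SETDB2-up library 3). The members' median of -0.04 became 0.065 without SETDB2-up libraries 1 and 2 and ranged from -0.08 to -0.0012 when 1 library was left out. All changed genes, 2690, became 911 after GC correction, 1009 after GC and length correction and 447 without SETDB2-up libraries 1 and 2, and 1082 to 3335 without 1 library. The cause was not tested; the fits without libraries also hold fewer samples. Libraries with the same number had deviations correlated at 0.038, 0.036 and 0.048, so the numbers were not taken as pairs, although each correlated best with its own number. With the replicate block 4 members rose and 8 fell among 3618 changed genes, and with the block and GC correction 0 rose and 6 fell among 1843. Of 160 alternative values for the 9 called members, 108 kept the call, 52 lost it and 0 changed sign. A further fit left out genes under an opposite-strand gene of at least 4 times their reads, which removes Mrpl48, Mrpl18 and Mrpl14. In it 3 of 75 members rose and 4 fell, while 1240 of all its genes rose and 1236 fell. Precision is limited by 3 libraries a group; the median standard error of a member was 0.0949.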
